A study of Mus musculus with 4 samples.

Results

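The genes described here act in the assembly of antigen receptors and in the selection of T cells in the thymus. They are Rag1 and Rag2, Dntt, Ptcra, Ccr9, Cd8a, Cd8b1, Cd4 and Satb1. The 9 genes were taken by symbol from the 4 single-cell count matrices of the series, and each symbol matched 1 row per matrix, of 32285 features in the lung libraries and 31053 in the allograft libraries. They were chosen because earlier results from these same libraries had shown several of them at high levels in the T cells of the RPR2 library, so their levels there are given as a description with no test. The values were read in cells with at least 1 unique molecular identifier (UMI, a count of 1 RNA molecule) of Cd3d, Cd3e, Cd3g or Cd8b1 that lay in a T-cell-like cluster, called gated T cells below. Gated T cells numbered 4494 of 8869 kept cells in RPR2, 717 of 10798 in CRPR2, 53 of 14035 in preSC_CracdKO and 1457 of 18111 in preSC_WT. Because Cd8b1 is 1 of the 4 gate genes, its own level is partly set by the gate.

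RPR2 and CRPR2 were taken from mouse lungs bearing small cell lung cancer, a carcinoma of neuroendocrine type. In this field RPR2 stands for mice that have lost the tumour suppressor genes Rb1, Trp53 and Rbl2, and CRPR2 for the same mice that have also lost Cracd, a regulator of actin filament capping. The libraries labelled preSC_CracdKO and preSC_WT came from allograft tumours of preSC cells, a line of precancerous mouse neuroendocrine cells, with the genotypes CracdKO and WT. All 4 were digested tumours for which the labels name no sort of T cells, and each group was 1 library, so no difference between groups has a replicate check. The Cre or virus that started the tumours, the strain, age and sex of the mice, the number of animals pooled and the allograft host are not stated in the labels used here.

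The Rag1 and Rag2 proteins form the recombinase that cuts DNA at antigen receptor gene segments, and terminal transferase, the product of Dntt, adds bases at the cut ends before they are joined. In the thymus, progenitors without coreceptors first rearrange the T-cell receptor beta gene and pair its chain with pre-T alpha, the product of Ptcra; they then divide, express Cd4 and Cd8 together, rearrange the alpha gene and are selected. Cells that are selected switch off the recombinase, keep either Cd4 or Cd8 and leave, so circulating and tissue T cells carry mature receptors and 1 kind of coreceptor.

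The libraries held 42592323 UMIs in 9215 barcodes for RPR2, 61917754 in 12164 for CRPR2, 110576113 in 16282 for preSC_CracdKO and 93376185 in 18559 for preSC_WT. Pairs of libraries shared between 36 and 79 barcodes. The median depth of gated T cells was 1558.5 UMIs in RPR2, 1939 in CRPR2, 1295 in preSC_CracdKO and 1195 in preSC_WT. RNA of Cracd, listed as C530008M17Rik, stood at 18.7 CPM in all kept cells of RPR2 and 13.7 CPM in CRPR2, where CPM is the UMIs of a gene per 1000000 UMIs summed over the cells. It stood at 83.5 CPM in the library labelled preSC_CracdKO and at 5.99 CPM in preSC_WT, so the higher level was in the library labelled CracdKO. An RNA level does not show whether the protein is made, and whether the labels are right was not tested. The allograft libraries are therefore named here only by their labels. Intervals below are exact Poisson, binomial or conditional binomial 95% intervals and cover counting error only. A higher CPM can come from more cells that carry the RNA or from more RNA per cell, so shares of cells are given beside it.

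Both recombinase genes were detected in gated T cells of RPR2 and had no UMI in gated T cells of the other libraries. Rag1, on mm10 chromosome 2 at chr2:101638282-101649501 on the minus strand, had 6425 UMIs in gated T cells of RPR2, a level of 571 CPM (557 to 585). It had 0 UMIs in CRPR2, preSC_CracdKO and preSC_WT, where 3 counts would have stood at 2.05 CPM in CRPR2, 39.3 CPM in preSC_CracdKO and 1.14 CPM in preSC_WT. By this limit of 3 counts Rag1 was at least 278-fold higher in RPR2 than in CRPR2, at least 14.5-fold higher than in preSC_CracdKO and at least 502-fold higher than in preSC_WT. The lower ends of the exact intervals were 226 for CRPR2, 11.8 for preSC_CracdKO and 408 for preSC_WT. Other folds given below as at least use the same limit of 3 counts, and their exact lower ends are likewise somewhat lower. Rag2, its neighbour at chr2:101624718-101632529 on the plus strand with 5752 bases between the annotated genes, had 336 UMIs in RPR2, a level of 29.9 CPM (26.8 to 33.2). It also had 0 UMIs in the other libraries, which puts RPR2 at least 14.5-fold above CRPR2 and at least 26.2-fold above preSC_WT. The 53 cells of preSC_CracdKO were too few to set a bound for Rag2.

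Per cell, 53.9% of gated T cells of RPR2 had a Rag1 UMI and 6.36% had a Rag2 UMI. After each cell was thinned to 1000 UMIs, which leaves out 715 of the 4494 cells, the shares were 41.8% and 3.36%. A cell with a Rag1 UMI held 2.65 of them on average. Mature B cells, which have completed their own rearrangement, served as 1 background. Of 393 B-cell-like cells of RPR2, 0.509% had a Rag1 UMI and 0.254% had a Rag2 UMI. Their median was 2295 UMIs per cell, deeper than the gated T cells. Rag1 stood at 3.76 CPM in the neuroendocrine tumour-like cells of RPR2 and at 0 in those of CRPR2. By cluster of RPR2 it stood at 1.92 CPM in B-cell-like, 18.0 in monocyte-like and 11.8 in NK-like cells. Tumour-like clusters of at least 50 cells ranged from 0 to 12.8 CPM. B-cell-like cells are thus a low background.

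Terminal transferase followed the recombinase. Dntt, at chr19:41029275-41059525 on the plus strand, had 7262 UMIs in gated T cells of RPR2, a level of 645 CPM (631 to 660), with UMIs in 54.1% of cells (42.2% thinned). It had 1 UMI in gated T cells of CRPR2, a level of 0.684 CPM, and 0 UMIs in both allograft libraries. The ratio of RPR2 to CRPR2 was 943 (169 to 37255), and Dntt was at least 16.4-fold above preSC_CracdKO and at least 567-fold above preSC_WT. Its share in B-cell-like cells of RPR2 was 0.254%.

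Ptcra, at chr17:46755663-46763712 on the minus strand, encodes pre-T alpha, which is replaced once an alpha chain is made. It had 447 UMIs in gated T cells of RPR2, a level of 39.7 CPM (36.1 to 43.6), and 0 UMIs in CRPR2, preSC_CracdKO and preSC_WT. RPR2 was at least 19.4-fold above CRPR2 and at least 34.9-fold above preSC_WT, while the depth of preSC_CracdKO set a bound of 1.01 and so allowed no comparison. Ptcra was found in 6.63% of gated T cells of RPR2 (3.12% thinned) and in 0 of the 393 B-cell-like cells, which at the limit of 3 counts allows up to 0.763% of cells with a UMI and by the exact upper bound 0.934%.

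The promoters of these recombination genes are shown because E-box sequences, the sites read by the E proteins Tcf3 and Tcf12, are known elements of early lymphocyte promoters, and both genes of these factors are described with the surrounding genes below. Each sequence is 300 bases from RefSeq on GRCm38.p6, 250 before and 50 after the annotated start, printed 5′ to 3′ on the gene's strand. Capitals mark matches to CAGCTG or CAGGTG on either strand. RefSeq entries were found for 7 of the 9 genes. The sequences come from chr2:101649483-101649782 (minus) for Rag1, chr2:101624462-101624761 (plus) for Rag2, chr19:41029025-41029324 (plus) for Dntt and chr17:46763663-46763962 (minus) for Ptcra.
Rag1: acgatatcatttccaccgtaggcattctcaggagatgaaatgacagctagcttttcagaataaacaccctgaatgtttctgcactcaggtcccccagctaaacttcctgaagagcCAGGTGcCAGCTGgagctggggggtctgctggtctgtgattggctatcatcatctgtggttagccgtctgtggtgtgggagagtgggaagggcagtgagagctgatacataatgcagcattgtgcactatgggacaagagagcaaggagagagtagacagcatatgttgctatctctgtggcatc
Rag2: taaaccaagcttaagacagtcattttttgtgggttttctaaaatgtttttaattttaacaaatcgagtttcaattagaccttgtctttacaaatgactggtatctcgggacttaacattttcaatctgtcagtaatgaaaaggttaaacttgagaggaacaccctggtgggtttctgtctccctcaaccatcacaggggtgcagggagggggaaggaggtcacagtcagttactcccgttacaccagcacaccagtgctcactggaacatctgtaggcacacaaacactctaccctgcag
Dntt: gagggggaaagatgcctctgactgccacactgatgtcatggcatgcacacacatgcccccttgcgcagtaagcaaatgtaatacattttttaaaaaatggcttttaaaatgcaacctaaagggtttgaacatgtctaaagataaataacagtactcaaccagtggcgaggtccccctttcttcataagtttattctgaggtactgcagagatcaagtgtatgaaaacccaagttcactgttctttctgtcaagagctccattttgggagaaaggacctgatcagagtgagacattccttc
Ptcra: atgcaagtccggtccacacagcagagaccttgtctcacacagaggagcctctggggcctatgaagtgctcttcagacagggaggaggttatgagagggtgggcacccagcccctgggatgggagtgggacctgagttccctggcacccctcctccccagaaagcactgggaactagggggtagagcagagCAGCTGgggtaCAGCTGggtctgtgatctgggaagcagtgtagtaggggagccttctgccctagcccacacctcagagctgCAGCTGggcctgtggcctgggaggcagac
The Rag1 window held 1 match of each motif side by side, the Ptcra window held 3 matches of CAGCTG, and the Rag2 and Dntt windows held 0 of either. Among 32851 mouse promoter windows of this length, 16.3% held CAGCTG, 20.2% held CAGGTG and 32.9% held at least 1 of them. A match describes the letters in the window and is not evidence of binding.

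**Figure D1:**
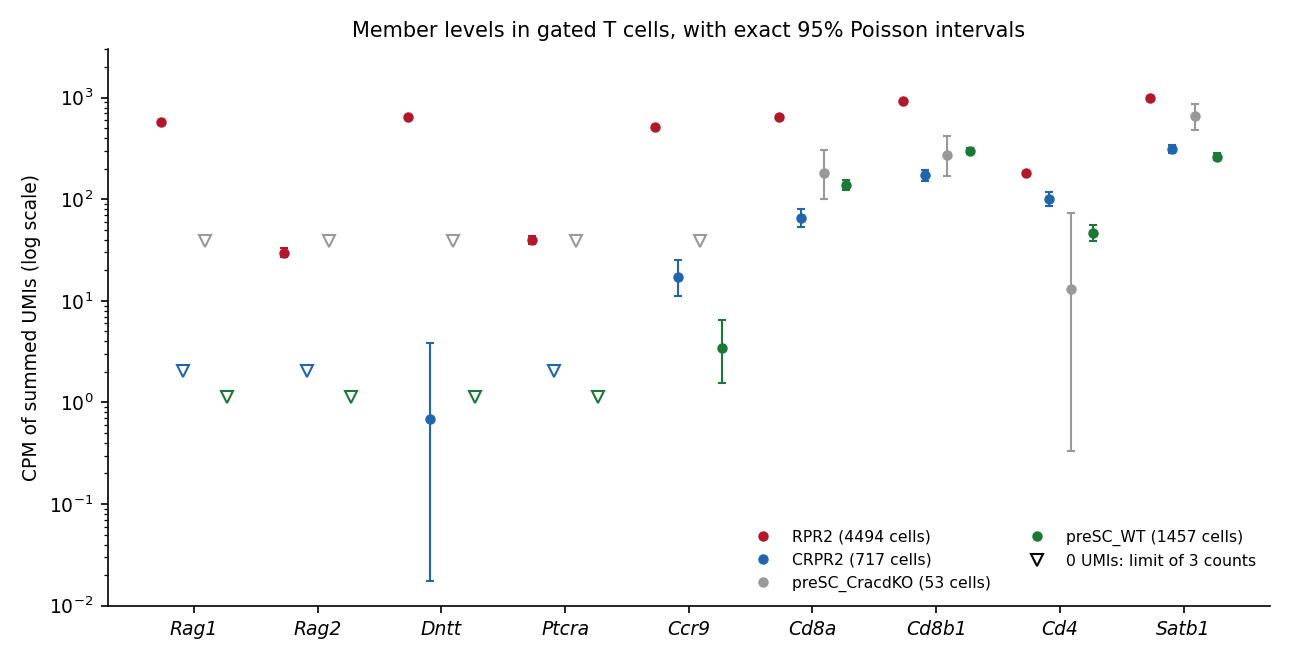
Level of each of the 9 genes in gated T cells as CPM of summed UMIs on a log axis, by library, with exact 95% Poisson intervals; open triangles mark 0 UMIs and stand at the level of 3 counts. RPR2 is the highest point for each gene for which a level could be compared, and Rag1, Rag2, Dntt and Ptcra have no filled point elsewhere except 1 UMI of Dntt in CRPR2.

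Ccr9 encodes the receptor of the chemokine Ccl25, which thymic epithelium and gut make, and marks thymocytes and gut-homing T cells. Ccr9, at chr9:123678439-123784330 on the plus strand, stood at 512 CPM (499 to 525) in gated T cells of RPR2, 17.1 CPM (11.1 to 25.3) in CRPR2, 0 in preSC_CracdKO and 3.42 CPM (1.56 to 6.48) in preSC_WT. RPR2 was 29.9-fold (20.2 to 46.3) above CRPR2 and 149.8-fold (78.9 to 328) above preSC_WT. It was detected in 58.7% of gated T cells of RPR2 (42.9% thinned), against 2.65% in CRPR2 and 0.480% in preSC_WT. Among B-cell-like cells it was detected in 0.509% in RPR2 and in 0 of 761 in CRPR2. Unlike the recombination genes it was thus present in T cells of CRPR2, at a level whose interval lay far below that of RPR2.

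The coreceptor genes had their highest levels in RPR2. Cd8a and Cd8b1 were detected in gated T cells of every library, while Cd4 had 1 UMI in preSC_CracdKO, under the limit of 3 counts. Cd8a and Cd8b1, neighbours on chromosome 6 at chr6:71373427-71379173 and chr6:71322788-71337494 on the plus strand, encode both chains of the Cd8 coreceptor, which reads MHC class I. Cd8a stood at 646 CPM (631 to 661) in RPR2, 65.7 (53.2 to 80.2) in CRPR2, 183 (100 to 307) in preSC_CracdKO and 139 (125 to 154) in preSC_WT. Cd8b1 stood at 921 CPM (903 to 939) in RPR2, 172 (151 to 194) in CRPR2, 275 (170 to 420) in preSC_CracdKO and 301 (280 to 322) in preSC_WT. For both genes the interval of RPR2 lay above those of all other libraries, and the allograft intervals overlapped each other. The ratios of RPR2 to CRPR2 were 9.83 (8.04 to 12.1) for Cd8a and 5.36 (4.73 to 6.1) for Cd8b1. Cells with a Cd8b1 UMI made up 69.7% of gated T cells in RPR2 (56.8% thinned), 17.7% in CRPR2, 32.1% in preSC_CracdKO and 32.7% in preSC_WT, against 0.509% of B-cell-like cells of RPR2. For Cd8a the shares were 59.9% in RPR2, 9.62% in CRPR2, 18.9% in preSC_CracdKO and 19.0% in preSC_WT.

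Cd4, at chr6:124864692-124888221 on the minus strand, encodes the coreceptor that reads MHC class II. It stood at 179.6 CPM (172 to 188) in RPR2, 101 (85.6 to 119) in CRPR2, 13.1 (0.331 to 72.9; 1 UMI) in preSC_CracdKO and 46.7 (38.8 to 55.7) in preSC_WT. The ratio of RPR2 to CRPR2 was 1.77 (1.5 to 2.11), the smallest of the 9 genes. A Cd4 UMI was present in 33.2% of gated T cells in RPR2 (21.2% thinned), 16.2% in CRPR2, 1.89% in preSC_CracdKO and 7.34% in preSC_WT, against 0.509% of B-cell-like cells of RPR2. The order was RPR2, CRPR2, preSC_WT, with intervals that did not overlap, and preSC_CracdKO could not be separated from preSC_WT.

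Satb1, at chr17:51736187-51833290 on the minus strand, encodes a chromatin organiser that thymocytes need to complete selection. It stood at 993 CPM (975 to 1012) in RPR2, 311 (283 to 341) in CRPR2, 654 (486 to 863) in preSC_CracdKO and 263 (244 to 283) in preSC_WT. The ratio of RPR2 to CRPR2 was 3.20 (2.91 to 3.52), and preSC_CracdKO stood 2.49-fold (1.83 to 3.32) above preSC_WT on 50 UMIs. Satb1 is not particular to T cells here: it was detected in 81.6% of gated T cells and 42.7% of B-cell-like cells of RPR2, and in 37.0% and 25.2% of these cells in CRPR2. B-cell-like cells held 285 CPM in RPR2, 214 in CRPR2, 291 in preSC_CracdKO and 587 in preSC_WT.

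By a rule of 2-fold or more and 20 CPM or more in whichever library was higher, 8 of the 9 genes were higher in RPR2 than in CRPR2, all but Cd4. Over all genes by the same rule 23.8% of 5894 were higher and 6.77% were lower. Against preSC_WT 9 of 9 were higher, beside 9.40% of all genes, and against preSC_CracdKO 6 of 9, beside 22.4%, the others being Satb1 at 1.52-fold (1.15 to 2.05) and Rag2 and Ptcra, which that library was too shallow to compare. Since the genes were chosen on this contrast, nothing is read from these counts. The 3 comparisons share the RPR2 library. Scaling by TMM in place of the library totals shifted every log2 ratio of RPR2 over CRPR2 by -0.32, kept the direction of all 9 genes and took the count of genes past 2-fold from 1403 higher and 399 lower to 830 higher and 625 lower.

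The combination of genes within 1 cell was then read. A UMI of at least 1 of the recombination genes Rag1, Rag2, Dntt and Ptcra was present in 3109 of 4494 gated T cells of RPR2, 69.2% (67.8 to 70.5), and in 59.2% (57.7 to 60.8) after thinning. It was present in 1 of 717 cells of CRPR2, 0.139%, in 0 of 53 cells of preSC_CracdKO and in 0 of 1457 cells of preSC_WT. At the limit of 3 counts these zeros allow up to 5.66% of cells with such a UMI in preSC_CracdKO and 0.206% in preSC_WT, and the exact upper bounds are 6.72% and 0.253%. They limit cells with a UMI, not cells that express the genes, and they hold for gated cells only. Outside the gate, 2 of the 243 T-cell-like cells of preSC_WT without a gate UMI had a recombination UMI, 0.823% (0.0998 to 2.94). The share in B-cell-like cells was 1.02% of 393 in RPR2 and 0.131% of 761 in CRPR2, at median depths of 2295 and 1371 UMIs. CRPR2 thus lay at the share of its B-cell-like cells and RPR2 far above that of its own. Left with the 536 gated cells of the cluster that CRPR2 also filled, described below, RPR2 had a share of 2.99%. Monocyte-like, NK-like and plasma-cell-like cells of RPR2 had more Rag1 and Dntt than its B-cell-like cells, so the 2.99% cannot be read against B-cell-like cells alone. The 4 genes were rarely all seen together: 236 cells, 5.25%, had UMIs of both Rag1 and Rag2, and 28 cells, 0.623%, had all 4.

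This share was also read on both sides of the gate in RPR2. Cells with at least 2 gate UMIs numbered 4353 and 69.8% of them had a recombination UMI. The 141 cells with 1 gate UMI had a share of 51.1% at a median of 867 UMIs, and the 75 cells of T-cell-like clusters without a gate UMI had 40.0% at 778 UMIs. There were 67 gated cells of RPR2 that entered on Cd8b1 alone, and 70.1% of these had a recombination UMI at a median of 895 UMIs. The share was thus lower in cells with few gate UMIs. The interval was 42.5 to 59.6 for cells with 1 gate UMI and 57.7 to 80.7 for those on Cd8b1 alone, and a cell can count in both sets. With all UMIs, Rag1 was seen in 67.6% of RPR2 gated cells with Cd8b1, against 22.4% without it. The share in cells that entered on Cd8b1 alone is therefore partly set by how they were picked, and nothing is read from it about the gate.

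Coreceptors were detected together in many T cells of RPR2 and in few elsewhere. UMIs of Cd4 and of Cd8a or Cd8b1 in the same cell were found in 1205 gated T cells of RPR2, 26.8% (25.5 to 28.1; 16.8% thinned), in 2 cells of CRPR2, 0.279%, in 0 of preSC_CracdKO and in 2 cells of preSC_WT, 0.137%. The same combination was found in 1 of 393 B-cell-like cells of RPR2, 0.254%, and in 1.68% of the RPR2 cells in the cluster shared with CRPR2. Cells with Cd8 alone made up 50.4% of gated T cells in RPR2, 19.8% in CRPR2, 41.5% in preSC_CracdKO and 39.9% in preSC_WT. Cells with Cd4 alone made up 6.41% in RPR2, 15.9% in CRPR2, 1.89% in preSC_CracdKO and 7.21% in preSC_WT. Cells with neither made up 16.4% in RPR2, 64.0% in CRPR2, 56.6% in preSC_CracdKO and 52.7% in preSC_WT. A cell without a UMI of a coreceptor may still carry it, since these depths are shallow.

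Recombination genes and coreceptors went together within RPR2. Cells with both coreceptors had a recombination UMI in 92.8% of cases (91.2 to 94.2; 1118 of 1205) and cells with Cd8 alone in 77.7% (75.9 to 79.4; 1758 of 2264). The share was 20.1% (15.7 to 25.2; 58 of 288) in cells with Cd4 alone and 23.7% (20.7 to 27.0; 175 of 737) in cells with neither. Depth ran the other way: the median was 1498 UMIs in cells with both and 1429 in those with Cd8 alone, against 2291.5 with Cd4 alone and 2180 with neither. Cells with Cd4 alone, the usual phenotype of mature helper cells, were thus mostly without recombination RNA although they were the deepest class.

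**Figure D2:**
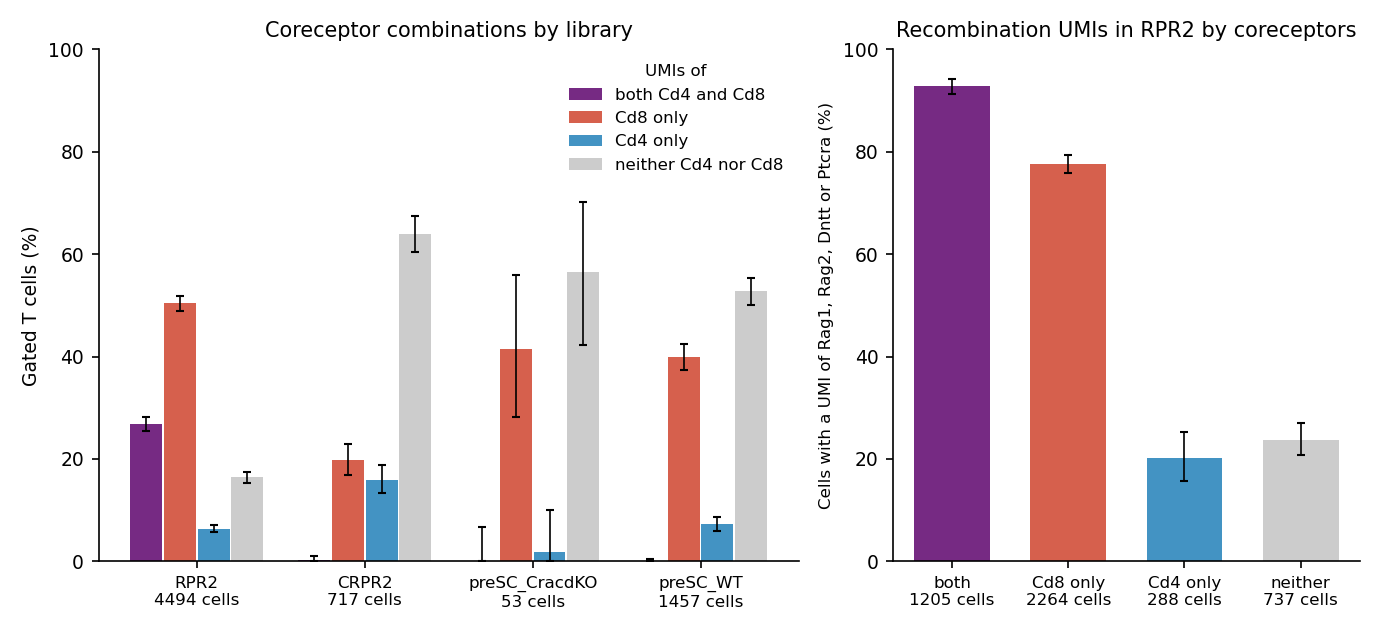
Left, share of gated T cells (%) by coreceptor UMIs in each library; right, share of RPR2 gated T cells (%) in each coreceptor class with a UMI of Rag1, Rag2, Dntt or Ptcra, both with exact 95% binomial intervals. Cells with both coreceptors make up 26.8% in RPR2 against 0.279% in CRPR2, and 92.8% of them have a recombination UMI, against 20.1% of cells with Cd4 alone.

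Counting genes per cell gave the same order. The median gated T cell of RPR2 held UMIs of 5 of the 9 genes, against 1 in each of CRPR2, preSC_CracdKO and preSC_WT. After thinning the median was 3 in RPR2, 0 in CRPR2, 1 in preSC_CracdKO and 1 in preSC_WT. The most frequent set in RPR2 was Rag1, Dntt, Ccr9, Cd8a, Cd8b1 and Satb1 without Cd4, in 377 cells or 8.39%, and the next was the same set with Cd4, in 311 cells or 6.92%. Sets of 7 or more genes were held by 549 cells of RPR2, 12.2%, and all 9 genes by 10 cells. None of the genes was seen in 162 cells of RPR2, 3.6%, against 311 cells of CRPR2, 43.4%, where no cell had more than 4. The leading set with any gene in CRPR2 was Satb1 alone, in 140 cells, and in preSC_WT it was Cd8b1 alone, in 238 cells.

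**Figure D3:**
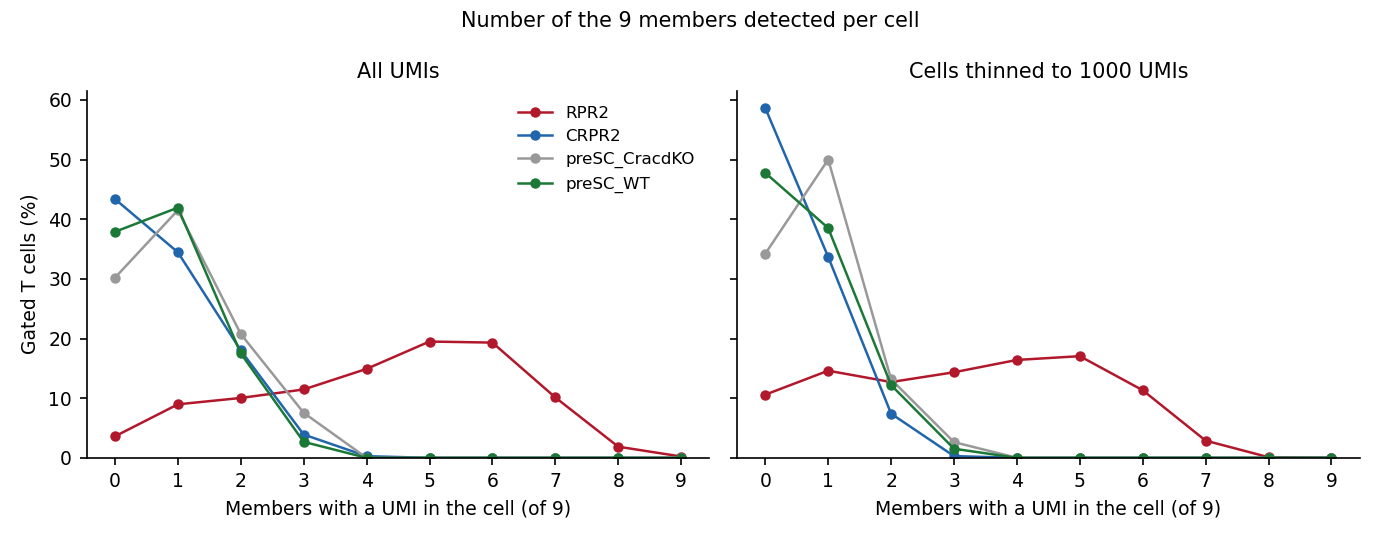
Share of gated T cells (%) by the number of the 9 genes with a UMI in the cell, with all UMIs (left) and with each cell thinned to 1000 UMIs (right), by library. The median cell has 5 genes in RPR2 and 1 in each other library; after thinning it has 3 in RPR2, 0 in CRPR2 and 1 in each allograft library.

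Pairs of genes were compared within RPR2 at the fixed depth of 1000 UMIs, where 1578 cells had a Rag1 UMI and 2201 had none. Among cells with Rag1, 81.0% also had Cd8b1, against 39.4% of cells without it. The shares were 62.2% against 27.8% for Dntt, 65.3% against 32.9% for Cd8a, 59.8% against 30.8% for Ccr9 and 31.5% against 13.9% for Cd4. All 8 other genes had a higher share beside Rag1. The smallest gap in percentage points was for Ptcra, a rarely detected gene, at 3.93% (3.03 to 5.01) against 2.54% (1.93 to 3.29), with intervals that overlap. Ptcra itself was joined less clearly: the 118 cells with Ptcra had Ccr9 in 38.1%, against 43.0% of the others, Cd4 in 17.8%, against 21.3%, and Satb1 in 63.6%, against 65.2%, with overlapping intervals. Rag1 was higher beside Ptcra, at 52.5% against 41.4%, as were Dntt, at 52.5% against 41.8%, and Cd8b1, at 66.1% against 56.5%. With all UMIs 298 cells had Ptcra, at a median depth of 5008.5 UMIs against 1515 in the others. There Ccr9 was in 63.8% against 58.4% and Satb1 in 87.9% against 81.1%, while Cd4 stayed lower, at 27.2% against 33.7%. These are shares over cells of 1 library, which share its free RNA.

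**Figure D4:**
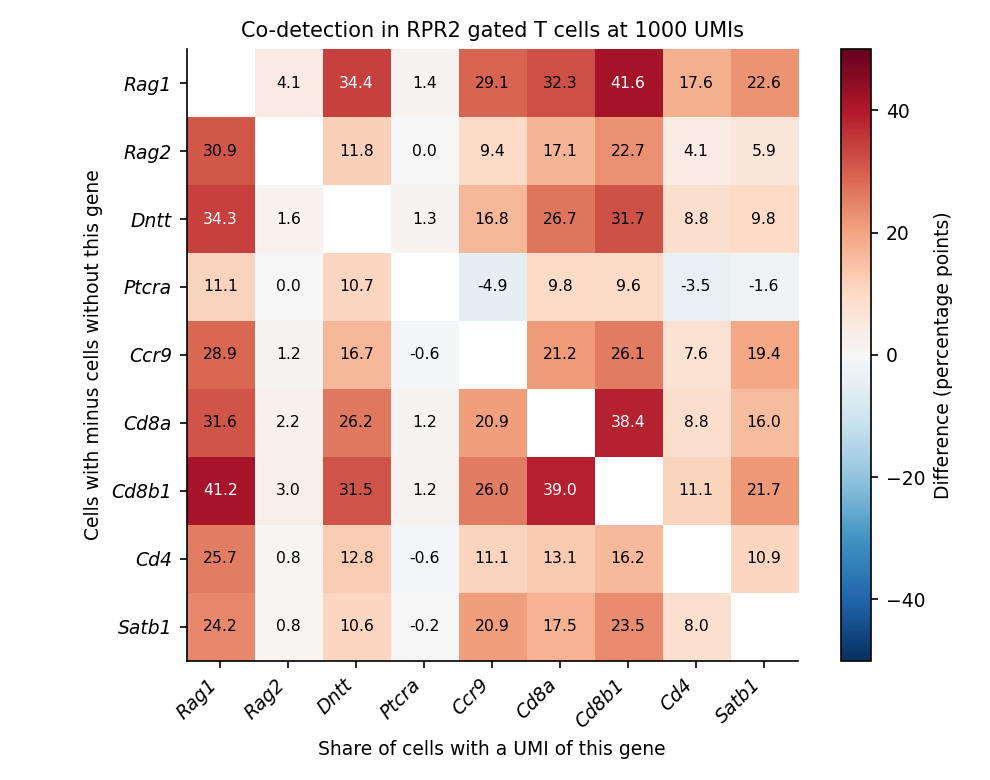
Co-detection in gated T cells of RPR2 thinned to 1000 UMIs: each square is the share of cells with a UMI of the column gene among cells with the row gene minus that among cells without it, in percentage points. The Rag1 row is positive for every other gene, and the Ptcra row is slightly negative for Ccr9, Cd4 and Satb1.

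The T-cell-like cells of the lung libraries fell into 5 clusters, made without the 9 genes. In RPR2 these held 89 gated cells (cluster 15, median 5628 UMIs), 594 (cluster 14, 5325), 2686 (cluster 7, 1230.5), 589 (cluster 10, 2026) and 536 (cluster 9, 2820). CRPR2 had 716 of its 717 gated cells in cluster 9, 1 in cluster 10 and 0 in the rest. Since clusters 7, 14 and 15 hold T cells of 1 library, and cluster 10 all but 1 cell, they may reflect that library rather than a type. Beside the genes used to form them, the clusters differed in the 9 genes as follows, as a description.

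Cluster 15 carried RNA of some genes of early progenitors. Dntt stood at 1179 CPM and Ptcra at 94.5, the highest of the 5 clusters for both, while Cd8a stood at 19.5, Cd4 at 9.77 and Rag1 at 86.3. Hes1, a target of Notch, stood at 1581 CPM there, Notch1 at 205 and Il2ra, which marks early progenitors without coreceptors, at 293. The 14 genes of the early progenitor list read below summed to 2293 CPM in cluster 15, 77.7 in cluster 7 and 846 in cluster 9 of RPR2. Hes1, Il2ra and Notch1 made up most of the sum in cluster 15, and the other listed genes held little. RNA of the gamma and delta receptor genes was also high, with 420 CPM of Tcrg-C1 and 598 of Trdc. Trac, the alpha constant gene, stood at 42.3 CPM in cluster 15, against 973 in cluster 7.

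Cluster 14 held dividing cells, with 677 CPM of Top2a and 464 of Mki67. Cd8a at 674 CPM and Cd8b1 at 737 were high there, while Cd4 stood at 64.7, Rag1 at 187 and Ptcra at 67.8. Dntt stood at 709 CPM and Trdc at 344.

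Cluster 7, the largest, had the highest Rag1 at 1549 CPM, Rag2 at 52.9, Cd8a at 1104, Cd8b1 at 1827, Cd4 at 388 and Ccr9 at 1048. Trac stood at 973 CPM there and Mki67, a gene of dividing cells, at 12.0. Cluster 7 thus joined recombinase, both coreceptors and alpha-chain RNA in cells with little cycling RNA.

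Cluster 10 had little Rag1, 17.1 CPM, and little Dntt, 36.5, but kept Satb1 at 1533 CPM and Ccr9 at 549. Itm2a and Cd5, genes induced after receptor signals, stood at 638 and 454 CPM, and Ccr7, a receptor that guides selected cells, at 505. The 16 genes of the selection list read below summed to 5401 CPM in cluster 10, 4631 in cluster 7 and 2707 in cluster 9 of RPR2. Zbtb7b, the factor of the Cd4 lineage, stood at 24.1 CPM and Runx3, that of the Cd8 lineage, at 78.4. Cells of cluster 10 thus had Satb1 at the level of cluster 7 with Rag1 near that of cluster 9.

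Cluster 9 had 1015 CPM of S100a4 and 246 of S1pr1, genes of mature and recirculating T cells, with Rag1 at 9.81 CPM and Satb1 at 377. It was the T-cell-like cluster that both lung libraries filled, with 536 gated cells of RPR2 and 716 of CRPR2. Within it, Cd8b1 stood at 175 CPM in RPR2, against 172 in CRPR2, a ratio of 1.02 (0.855 to 1.21), and Cd4 at 123 in RPR2, against 101 in CRPR2, a ratio of 1.21 (0.973 to 1.51). Both intervals include 1. Satb1 at 1.21 (1.07 to 1.37) and Cd8a at 1.35 (1.04 to 1.77) were slightly higher in RPR2, and Ccr9 was 2.54-fold (1.59 to 4.19) higher. Rag1 had 16 UMIs in RPR2 and 0 in CRPR2, at least 4.77-fold higher, so most of the difference over all gated T cells lay in clusters that CRPR2 did not fill. Among RPR2 clusters of at least 50 cells that were not T-cell-like, Rag1 ranged from 0 CPM in a tumour-like cluster to 18.0 in the monocyte-like cluster. It stood at 1.92 CPM in B-cell-like cells. The Rag1 levels of clusters 9 and 10 lie inside that range, so they are not particular to T cells.

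**Figure D5:**
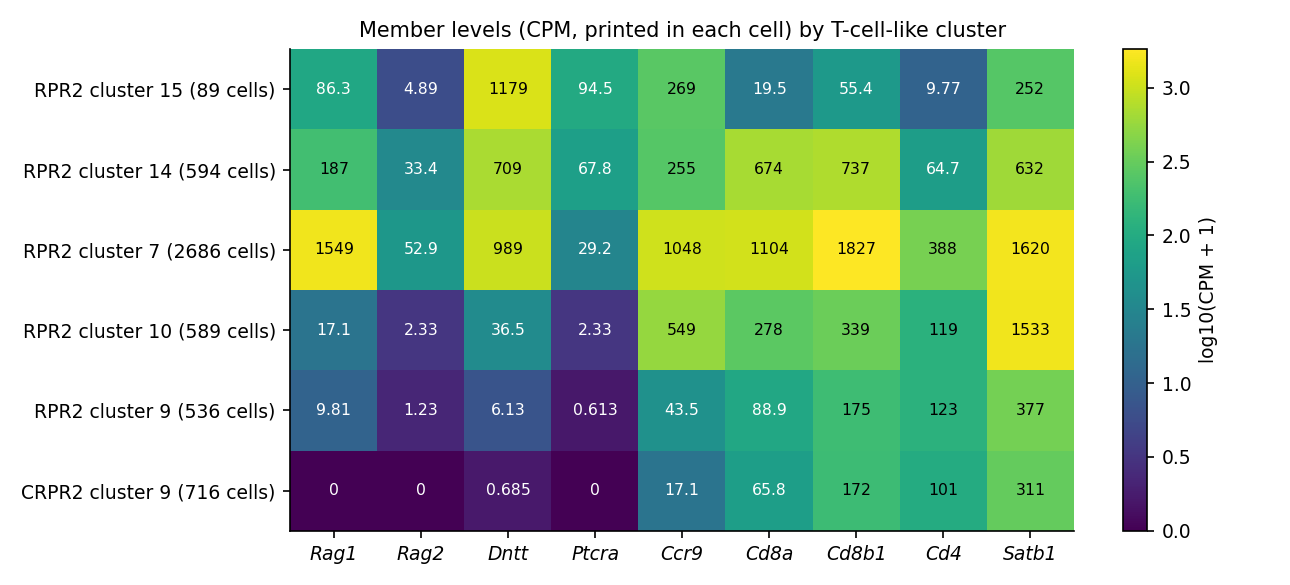
Level of each of the 9 genes (CPM, printed in each square, coloured as log10 of CPM + 1) in gated T cells of the 5 T-cell-like clusters of RPR2 and of cluster 9 in CRPR2. Ptcra and Dntt are highest in cluster 15, Rag1 and both coreceptors in cluster 7, and the lowest row of RPR2, cluster 9, is close to CRPR2.

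T cells of RPR2 without any recombination UMI were also set against those of CRPR2, 1385 cells against 716. Ccr9 stood at 319 CPM in RPR2, against 17.1 in CRPR2, a ratio of 18.6 (12.6 to 28.9), and Satb1 at 937 in RPR2, against 311 in CRPR2. Cd8a stood at 241 in RPR2, against 65.7 in CRPR2, and Cd4 at 131 in RPR2, against 101 in CRPR2, a ratio of 1.30 (1.07 to 1.58). Ccr9 and Satb1 thus stayed higher in RPR2 where no recombination RNA was seen, which at this depth includes cells that carry it unseen. Clusters were not matched in the contrasts of this paragraph. Nearly all CRPR2 cells lay in cluster 9, while most of the 1385 RPR2 cells lay in clusters that CRPR2 hardly filled. Within cluster 9 the ratio of RPR2 to CRPR2 was 2.54 for Ccr9 and 1.21 for Satb1. Among cells with Cd8 alone and no recombination UMI, 506 in RPR2, 142 in CRPR2, 22 in preSC_CracdKO and 582 in preSC_WT, Ccr9 stood at 480 CPM in RPR2, 28.8 in CRPR2, 0 in preSC_CracdKO and 3.69 in preSC_WT. In RPR2 cells without recombination UMI, Zbtb7b stood at 30.7 CPM (19 UMIs) where Cd4 alone was seen and at 1.87 (2 UMIs) where Cd8 alone was seen. Runx3 stood at 64.5 CPM where Cd4 alone was seen and at 111 where Cd8 alone was seen, so each lineage factor was higher beside its own coreceptor.

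The genes around the recombinase were read from lists of pathway genes, by a rule of 1.5-fold or more and 5 CPM or more in the higher group. The lists were drawn up with results of these data known. By this rule 43.8% of 9581 genes were higher in RPR2 than in CRPR2 and 13.5% lower, with a median log2 ratio of 0.44 over all of them. Of the end-joining list, 8 of 11 measured genes were higher and 1 lower, with a median of 1.19. The 8 include Hmgb1 and Hmgb2, DNA-bending cofactors of cutting by the recombinase, without which 6 of 9 were higher. Xrcc6, which encodes Ku70, stood at 198 CPM in RPR2, against 13 in CRPR2, and Lig4, the ligase of end joining, at 36.8 in RPR2, against 2.05 in CRPR2. Dclre1c, which encodes the nuclease Artemis, stood at 35.0 in RPR2, against 4.79 in CRPR2. Prkdc, the kinase that Ku recruits, was the lower gene, at 7.20 in RPR2, against 12.3 in CRPR2. The list is not particular to cells with high Rag1. With Hmgb1 and Hmgb2 included, it summed to 10823.5 CPM in the dividing cells of cluster 14 and 3985 in cluster 7. In tumour-like cells it summed to 3005 CPM in RPR2 and 2609 in CRPR2.

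Of genes of the stage with both coreceptors, 13 of 14 were higher and 0 lower, with a median log2 ratio of 3.24, or 2.87 with the genes at 0 in CRPR2 set to 3 counts. Arpp21 stood at 566 CPM in RPR2, against 0.684 in CRPR2, Endou at 436 in RPR2, against 0 in CRPR2, and Cd24a, a surface protein lost on maturation, at 412 in RPR2, against 24.6 in CRPR2. Tcf12, an E protein, stood at 252 in RPR2, against 58.2 in CRPR2, and Tcf3 at 52.7 in RPR2, against 20.5 in CRPR2. All 10 cycling genes were higher, with a median of 3.52.

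Receptor and lineage genes were mixed. Of the T-cell receptor and CD3 genes, 7 of 11 were higher and 0 lower, with a median of 0.71; Trbc1 stood at 2793 CPM in RPR2, against 660.4 in CRPR2, while Trac stood at 576 in RPR2, against 453 in CRPR2. Of 15 lineage factors 8 were higher and 2 lower, Runx3 and Zbtb7b, with a median of 0.62. Of 15 selection genes 9 were higher and 1 lower, with a median of 0.75, and Bcl2l11, which encodes the death factor Bim, stood at 221 in RPR2, against 39.0 in CRPR2. Of 6 measured early progenitor genes 2 were higher and 3 lower, with a median of -0.64: Hes1 stood at 154 in RPR2, against 8.21 in CRPR2, and Il7r at 119 in RPR2, against 703 in CRPR2.

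Genes of exit from the thymus and of effector T cells stood the other way. All 9 exit genes were lower in RPR2, with a median log2 ratio of -1.99; S1pr1, the receptor by which T cells leave the thymus, stood at 44.7 CPM in RPR2, against 205 in CRPR2. Of 10 effector genes 9 were lower and 1 higher, with a median of -2.10. The higher gene was Gzma, which encodes granzyme A, at 205 CPM in RPR2, against 6.16 in CRPR2. Of its 2309 UMIs in gated T cells of RPR2, 2261 lay in cells with a recombination UMI. Its level was 280 CPM in those cells and 15.1 in cells without one. Under TMM scaling the exit, effector, cycling and both-coreceptor lists kept these counts, while the end-joining list had 7 of 12 higher and 2 lower, the receptor list 4 of 11 higher and 1 lower, and the selection list 5 of 15 higher and 2 lower. The lineage list had 7 of 15 higher and 2 lower and the progenitor list 1 of 6 higher and 4 lower. Over all genes TMM left 2718 higher and 2009 lower, in place of 4193 and 1291. These list contrasts are over all gated T cells, whose clusters differ between the libraries. In cluster 9 alone, which both libraries filled, the exit genes summed to 4302 CPM in RPR2, against 3743 in CRPR2. The effector genes summed to 1485 in RPR2, against 1771 in CRPR2, and the both-coreceptor genes to 405 in RPR2, against 297 in CRPR2. The lower exit genes of RPR2 were thus not seen as a sum within that cluster.

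Within RPR2 the same lists were read in cells with a recombination UMI against cells without one, 3109 against 1385 cells at median depths of 1432 and 2032 UMIs. By the same rule 25.4% of 9612 genes were higher in the cells with a recombination UMI and 15.3% lower, with a median log2 ratio of 0.16. All 10 cycling genes and 11 of 14 genes of the both-coreceptor stage were higher, and all 9 exit genes were lower, with Ccr7 at 15.6 CPM in cells with a recombination UMI and 331 in cells without. Of 8 measured effector genes 7 were lower and 1, Gzma, was higher. Of 16 selection genes 7 were lower and 2 higher. Among them Itm2a stood at 28.2 CPM in cells with a recombination UMI and 273 in cells without, and Cd5 at 90.1 in cells with one and 294 in cells without.

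Cycling RNA differed between cells with and without some of the genes. The summed level of the 10 cycling genes was 2951 CPM in cells with a Ptcra UMI and 1292 in cells without, at median depths of 5008.5 and 1515 UMIs. It was 2242 CPM in cells with Dntt and 449 in cells without, at closer depths of 1533 and 1598. For Cd4 it was 1567 CPM in cells with and 1598 in cells without. The part of depth in these differences was not tested.

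Receptor V segments, which a rearranged gene places before the constant region, were also seen, although 3′ libraries catch few of them. In RPR2 692 gated cells, 15.4%, had a Trbv UMI, spread over 23 of 35 beta segments in the file, and 658 of them had 1 segment. Trbv2 took the highest share of these UMIs, 24.5%. For the alpha gene 555 cells, 12.3%, had a Trav UMI over 60 of 128 segments, led by Trav3-3 at 9.01%. In CRPR2 41 cells had a Trbv UMI, over 14 segments. Among the 3109 RPR2 cells with a recombination UMI, 526 had a Trbv UMI, over 23 segments, with Trbv2 at 22.9%. They were thus spread over many V segments, although near-identical segments may not be told apart by the counting.

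Genes with the pattern most like Rag1 were taken by Pearson correlation of log2(CPM + 1) over 66 cluster-by-library groups of at least 50 cells, among 13714 genes, as a description over groups that share libraries. They were H2-Q1 at 0.951, Dntt at 0.932, Gm15340 at 0.909, H2-T3 at 0.907 and A430106G13Rik at 0.869. Of the other members, Rag2 reached 0.844 and Ccr9 0.833, and Satb1 was lowest at 0.528. For Ptcra the nearest genes were Dgkeos at 0.738, Dntt at 0.730, 2900079G21Rik at 0.718, Tctex1d1 at 0.710 and Arpp21 at 0.698. Dntt was thus near both genes.

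Markers of thymic epithelium and of other cell types were read because the tissue label is lung. In all 8869 kept cells of RPR2, Foxn1, the master factor of thymic epithelium, had 3 UMIs, Psmb11 4, Prss16 15, Aire 4 and Tbata 0; CRPR2, with 10798 cells, had 2, 1, 26, 12 and 0. Ccl25, the ligand of Ccr9, stood at 16.7 CPM in RPR2, 10.2 in CRPR2, 29.2 in preSC_CracdKO and 21.7 in preSC_WT. Of the 11 genes of a thymic stroma list, 3 were measured in gated T cells: Ccl25 and Ctsl were higher in RPR2 than in CRPR2 and Cd83 lower, with a median log2 ratio of 0.82. Under TMM scaling 1 of these 3 was higher and 1 lower, with a median of 0.52. The defining markers of thymic epithelium were therefore at or near 0 in the kept cells of RPR2, and Ccl25 was no higher there than in the allografts. These counts cover only cells that were released, loaded and kept, so they do not show which tissues were in the dissection. The labels give the tissue only as lung. Whether thymus, a lymph node or another tissue entered the RPR2 sample with the lung tumour was not tested. This limits what its T-cell values can be taken to describe. In gated T cells the 15 neuroendocrine tumour markers summed to 295 CPM in RPR2, 298 in CRPR2, 26.2 in preSC_CracdKO and 3373 in preSC_WT, and the 8 B-cell markers to 28.4 in RPR2, against 80.8 in CRPR2. The 6 airway markers summed to 517 CPM in RPR2, against 820 in CRPR2, and the 7 NK markers to 215 in RPR2, against 37.6 in CRPR2. Gzma held 2309 of the 2418 NK-marker UMIs in RPR2, against 9 of 55 in CRPR2. The other 6 NK markers summed to 9.69 CPM in RPR2, against 31.5 in CRPR2, so the direction turns without Gzma. Xist, which is transcribed from the inactive X chromosome, was at 1533 CPM in recombination-bearing T cells of RPR2 and 1573 CPM in its tumour-like cells, against 0.166 CPM in the tumour-like cells of CRPR2. The T cells and the tumour cells of RPR2 were thus alike in carrying Xist, and sex and genotype cannot be told apart between the lung libraries.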

How the data were processed

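Per the labels' protocols, tumours were minced, digested to single cells, cleared of red cells and dead cells and loaded for 10x 3′ libraries. The deposited matrices hold raw UMI counts that the authors made with Cell Ranger, version 6.1.2 for the lung and 5.0.0 for the allograft libraries per the file headers; the build was mm10 per the submitters' processing notes. No label or header names the annotation or the cell-calling settings.

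Barcodes with under 300 detected genes or over 15% mitochondrial UMIs were left out. Doublets called by Scrublet in scanpy 1.11.5 (Python 3.11.15) were removed; where it marked under 0.5% of a library, a share of 0.8% per 1000 barcodes was removed from the top of the scores, which applied to CRPR2 and preSC_CracdKO. Each pair of libraries was clustered with 2000 variable genes less the 9 members, 50 components, 15 neighbours and Leiden resolution 1.0, giving 25 clusters a pair. A cluster was named from marker lists only. Counts were summed over gated T cells per library and divided by all their UMIs for CPM; a gene at 0 was set against a floor of 3 counts. Median depths were 1558.5, 1939, 1295 and 1195 UMIs a cell for RPR2, CRPR2, preSC_CracdKO and preSC_WT, over 11251358, 1461184, 76425 and 2634675 summed UMIs.

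With 1 library per group no test was made and no p-value is given. The named genes were the 9 members, examples from the gene lists past 1.5-fold and the 5 genes nearest to Rag1 and to Ptcra. Other genes were named after their values were seen, to describe clusters. The members and lists were chosen with earlier results of these data known. TMM factors came from edgeR 4.0.16 in R 4.3.3, used for scaling alone. Of the listed genes, 1 is not reported here.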

Additional observations from a re-analysis of the deposited data

How the results depend on the processing

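No paired analysis was possible because each group had 1 library. The recombination share of RPR2, 69.2% in the report, was 59.2% after thinning, 65.2% with the gate alone, 67.2% with NK-like clusters added (an alternative chosen after seeing the data) and 2.99% without clusters held to 90% or more by 1 library. The share with both coreceptors was 16.8% thinned, 25.3% with the gate alone and 1.68% without those clusters. The summed level of Rag1, Rag2, Dntt and Ptcra, 1286 CPM, was 1029 with the gate alone, 1184 with doublets kept, 1239 with NK-like clusters and 17.8 without those clusters, which leaves the 536 cells of cluster 9. In CRPR2 the recombination share was 0 both thinned and with at least 500 genes per cell, and the share with both coreceptors was 0 thinned. The count of members 2-fold higher in RPR2 than in CRPR2 was 1, in place of 8, without those clusters. The count of genes 2-fold apart, 1802, was 3241 from 5 CPM, 8981 with no minimum and 179 without those clusters, with 1455 under TMM and 1457 under size factors. The remaining 49 checks of main results stayed within their limits and none reversed. The allograft pair had no value without clusters held by 1 library, since its only T-cell-like cluster was one. Depth limits Rag2 and Ptcra in preSC_CracdKO, where 3 counts stand at 39.3 CPM.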
